A study of Arabidopsis thaliana with 12 samples.

Results

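The SnRK2 kinases (SNF1-related protein kinases of group 2) are a plant family of serine/threonine kinases, and their transcripts were followed here in Arabidopsis seedlings under salt. The members were the 10 loci SNRK2.1 to SNRK2.10, taken by locus with earlier results of these data known, and they were 10 of 23936 features tested. The array carried 12 probes for them, and all 10 genes and all 12 probes passed the filter on dim signals. Each probe was well above background on every array. The 4 groups compared had 3 replicates in each: Col-0, the wild type, and iU1-52, each grown for 14 days either on MS medium or on MS with 200 mM NaCl. iU1-52 combines the glcna.ut2-1 mutation with a double-stranded RNA that silences GlcNA.UT1, so that both genes for the enzyme making UDP-GlcNAc, the activated amino sugar of protein glycosylation, are affected. It is 1 transgenic line, the mutation and the RNA interference were not separated, and whole seedlings were used. RNA was labelled with Cy3 and 1 sample was hybridised to each of the 12 arrays.

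SnRK2 kinases act in the responses to abscisic acid (ABA) and to osmotic stress. In the ABA core pathway the hormone binds PYR/PYL receptors, which then block the clade A protein phosphatases 2C, and the kinases held inactive by these phosphatases become active and phosphorylate bZIP transcription factors and ion channels. Subclass III (SNRK2.2, SNRK2.3 and SNRK2.6) is strongly activated by ABA and subclass II (SNRK2.7 and SNRK2.8) weakly. Subclass I (SNRK2.1, SNRK2.4, SNRK2.5, SNRK2.9 and SNRK2.10) is not activated by ABA, and osmotic stress activates its members other than SNRK2.9. This activation is by phosphorylation. An array measures transcripts and not kinase activity.

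Values are log2 of the quantile normalized signal, and they were compared only within a probe. A gene was called where limma's adjusted p was under 0.05 and the difference was at least 2-fold, that is 1 on the log2 scale. No probe matched GlcNA.UT1, so its knockdown was not checked here, while GlcNA.UT2 ranged from 11.62 to 11.84 in iU1-52 and from 12.66 to 12.85 in Col-0 on MS. With salt these ranges were 12.19 to 12.70 and 12.88 to 12.95. Replicates of iU1-52 in NaCl spread more widely than the others, with a median SD over features of 0.215 against 0.071 to 0.079 in the other groups, and replicate 1 stood apart there. Of the SnRK2 differences reported, those that changed by over 1.5 times or crossed a threshold without it are also given without it. Each replicate number was 1 slide, and each group had the same position on every slide, so that position and group cannot be told apart. The labels number the replicates, and the paper calls them biological replicates.

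Between the lines in NaCl, 50% of the members passed the adjusted p, close to the 51.0% of all features, and no member did on MS. On MS, 0 of the 10 members were called between iU1-52 and Col-0, where 0.326% of all features were called. By limma 0 had an unadjusted p under 0.05, and 0 were called by the 2-way ANOVA with the fold limit. The fit shared its estimate of spread over all groups, so the wider spread of iU1-52 in NaCl entered the MS test. The lines did not overlap on MS for 4 members, against 16.2% of all features, so small differences there are not excluded. In NaCl, all 10 differences were above 0 under quantile normalization (SNRK2.2 fell to -0.0041 when scaled to the 75th percentile), 5 passed the adjusted p and 1, SNRK2.7, was also over 2-fold. Among all features in NaCl, 11.0% were called in either direction and 5.35% as higher, while 51.0% passed the adjusted p alone and 27.8% did so as higher. The median difference of the members in NaCl was 0.34 on the log2 scale against 0.05 over all features. Without iU1-52 in NaCl replicate 1, 5 members again passed the adjusted p and 0 were called. With each array left out in turn, 4 of the 5 always passed the adjusted p and SNRK2.9 did so in 2 of 12 fits.

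**Figure D1:**
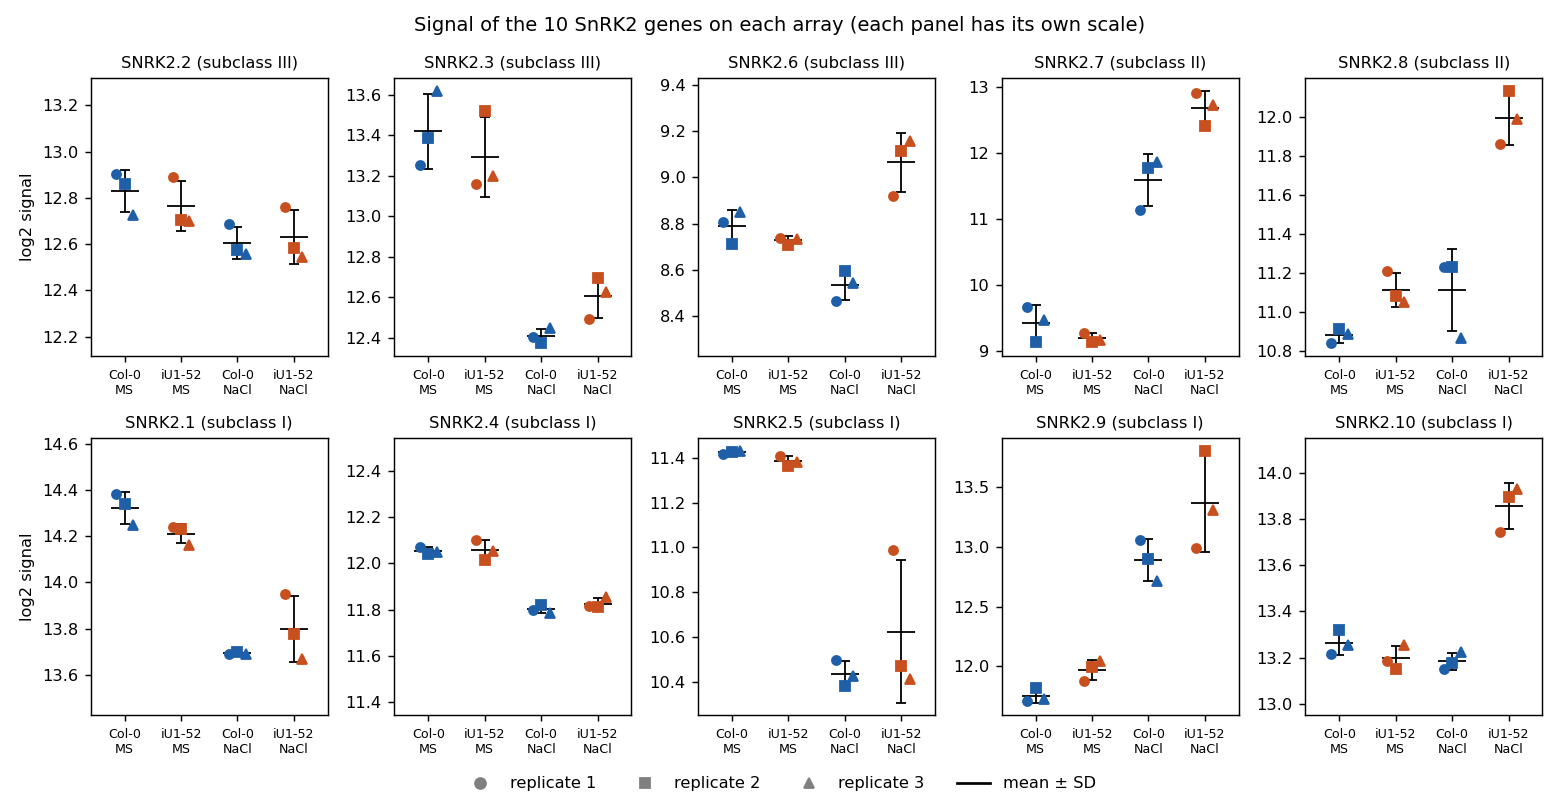
Log2 signal (y axis, own scale in each panel) of the 10 SnRK2 genes on each of the 12 arrays, by group (x axis). Symbols mark the replicate number, blue is Col-0 and orange iU1-52, and bars are the mean and SD of 3 arrays. SNRK2.6, SNRK2.7, SNRK2.8 and SNRK2.10 have all 3 iU1-52 arrays in NaCl above those of every other group.

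SNRK2.7 (AT4G40010), a subclass II kinase, had the largest difference of the family in each of the 4 comparisons that involve salt. The study listed it among salt-responsive genes of these arrays, so its selection there is not independent evidence, and quantified it by RT-qPCR with the following pair of primers. The pair is shown in lower case, 5′ to 3′, as the identity of the transcript that the study followed up, and its PCR values were not used here.
SNRK2.7 forward primer: acgttgctccggaagtcttgt
SNRK2.7 reverse primer: ccacacatctgcaatctttcca

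On MS, the SNRK2.7 signal was 9.67, 9.15 and 9.48 in Col-0 and 9.29, 9.14 and 9.17 in iU1-52 (replicates 1, 2 and 3). With salt it was 11.14, 11.78 and 11.87 in Col-0 and 12.92, 12.42 and 12.74 in iU1-52. The lines overlapped on MS, both rose with salt, and every iU1-52 array in NaCl lay above every Col-0 array in NaCl. The lowest Col-0 value with salt and the highest iU1-52 value were both replicate 1.

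SNRK2.7 transcripts rose 4.49-fold with salt in Col-0 (2.17 on the log2 scale, SE 0.20, adjusted p = 5.63e-06) and 11.3-fold in iU1-52 (3.49, SE 0.20, adjusted p = 9.81e-08). In NaCl they were 2.13-fold higher in iU1-52 than in Col-0 (1.09, SE 0.20, adjusted p = 0.00144), and the difference on MS was -0.23 (adjusted p = 1). The difference in NaCl minus that on MS was 1.33 (SE 0.29, adjusted p = 0.00688). Its levels were thus highest in iU1-52 in NaCl, then in Col-0 in NaCl, and lowest in the MS groups, which did not differ beyond their spread. Within slides the differences in NaCl were 1.77, 0.64 and 0.87. Without Col-0 in NaCl replicate 1 the difference was 0.87 (adjusted p = 0.00393), and without iU1-52 in NaCl replicate 1 it was 0.98 (adjusted p = 0.00334), so that in either case it passed the adjusted p and not the 2-fold limit. The interaction stayed called with any array left out, with an adjusted p of at most 0.0191.

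SNRK2.8 (AT1G78290), the other kinase of subclass II, was raised by salt in iU1-52 and not past the threshold in Col-0. Its brighter probe gave 10.84, 10.92 and 10.89 in Col-0 and 11.21, 11.08 and 11.05 in iU1-52 on MS. With salt the values were 11.23, 11.23 and 10.87 in Col-0 and 11.86, 12.13 and 11.99 in iU1-52. Col-0 with salt overlapped both MS groups, and iU1-52 with salt lay above all 9 other arrays.

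Salt raised SNRK2.8 by 0.88 on the log2 scale in iU1-52 (1.84-fold, SE 0.11, adjusted p = 3.22e-05). In Col-0 the change was 0.23, with a 95% interval from -0.01 to 0.47 (adjusted p = 0.0795). Within slides this change was 0.39, 0.32 and -0.02, and without Col-0 in NaCl replicate 3 it was 0.35. It passed the adjusted p in 1 of the 12 fits with 1 array left out. Between the lines in NaCl the difference was 0.88 (1.84-fold, SE 0.11, adjusted p = 0.000107), and the interaction was 0.65 (SE 0.15, adjusted p = 0.0106). Without Col-0 in NaCl replicate 3 the interaction was 0.53. A second SNRK2.8 probe, dimmer, gave 0.88 between the lines in NaCl (adjusted p = 0.000444) and 1.02 for salt in iU1-52 (2.02-fold, adjusted p = 5.74e-05), the latter past the 2-fold limit that the brighter probe missed. With any array left out, the brighter probe gave 0.76 to 0.95 between the lines in NaCl.

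Within subclass III, SNRK2.6 stood apart from its relatives. SNRK2.6 (AT4G33950, also OST1) is the kinase known for ABA-induced stomatal closure, where it phosphorylates the anion channel SLAC1. Its signal on MS was 8.81, 8.71 and 8.85 in Col-0 and 8.74, 8.71 and 8.73 in iU1-52. In NaCl it was 8.46, 8.59 and 8.54 in Col-0 and 8.92, 9.11 and 9.16 in iU1-52. The Col-0 arrays with salt were thus the lowest of the 12 and the iU1-52 arrays with salt the highest, with no overlap.

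SNRK2.6 fell by 0.26 with salt in Col-0 (SE 0.08, adjusted p = 0.0116) and rose by 0.34 in iU1-52 (SE 0.08, adjusted p = 0.00232), so the lines moved in opposite directions. In NaCl the difference between them was 0.53 (1.44-fold, SE 0.08, adjusted p = 0.000283), within slides between 0.46 and 0.62, and the interaction was 0.59 (SE 0.11, adjusted p = 0.00264). None of these reached 2-fold. With any array left out the difference in NaCl lay between 0.48 and 0.60. Between the lines in NaCl, guard cell markers went the other way. All 4 tested (FAMA, MYB60, HT1 and ALMT12) were lower in iU1-52, past the adjusted p. GC1, also listed as a marker, was left out because the reference did not pair its name with its locus. The mean log2 signal of the 4 was 6.94 to 7.39 in iU1-52 and 8.31 to 8.38 in Col-0. With salt these markers fell in both lines, all 4 called, with medians of -2.57 in Col-0 and -3.47 in iU1-52. Their part in the SNRK2.6 result was not tested. In whole seedlings, fewer cells of a type and less RNA per cell cannot be told apart.

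SNRK2.3 (AT5G66880), which acts with SNRK2.2 in seed germination and seedling growth under ABA, was lowered by salt. On MS it had 13.25, 13.39 and 13.62 in Col-0 and 13.16, 13.52 and 13.20 in iU1-52, and with salt 12.41, 12.37 and 12.45 in Col-0 and 12.49, 12.70 and 12.63 in iU1-52. The lines overlapped on MS and did not in NaCl. The fall in Col-0 was 1.01 on the log2 scale, or 2.01-fold (SE 0.12, adjusted p = 2.56e-05), and it was called at the edge of the 2-fold limit: it was -0.91 without Col-0 in MS replicate 3, -0.99 without Col-0 in NaCl replicate 2 and -0.95 with scaling to the 75th percentile. In iU1-52 SNRK2.3 fell by 0.69 (SE 0.12, adjusted p = 0.000345). The difference between the lines in NaCl was 0.20, with a 95% interval from -0.06 to 0.45 (adjusted p = 0.18).

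SNRK2.2 (AT3G50500) moved least within its subclass. Its 12 values lay between 12.54 and 12.90, and the difference between the lines in NaCl was 0.02, with a 95% interval from -0.17 to 0.21 (adjusted p = 0.836). Salt lowered it by 0.22 in Col-0 (SE 0.09, adjusted p = 0.0384). In iU1-52 the change was -0.14 (adjusted p = 0.186), and -0.20 without replicate 1 of iU1-52 in NaCl (adjusted p = 0.0373). With 1 array left out, the change in Col-0 stayed under an adjusted p of 0.05 in 8 of 12 fits.

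**Figure D2:**
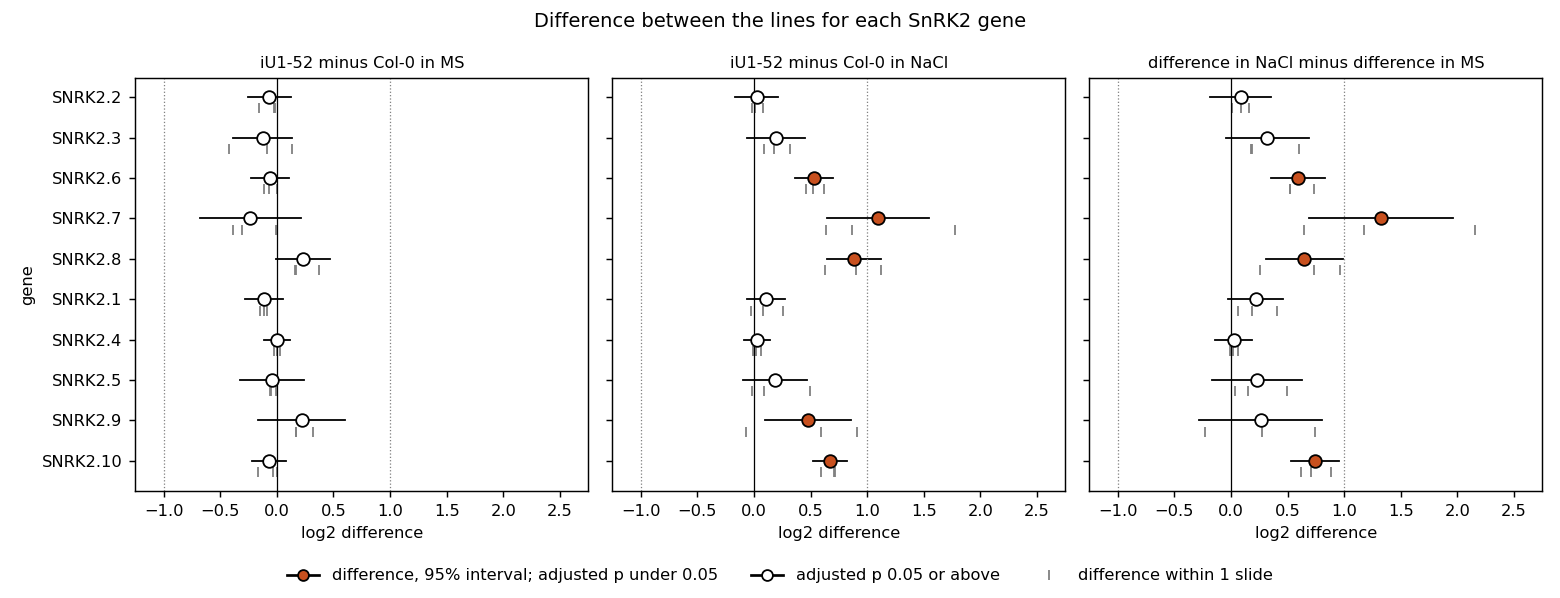
Log2 difference (x axis) of each SnRK2 gene (y axis) between iU1-52 and Col-0 on MS, in NaCl, and in NaCl minus MS. Circles are the limma estimates with 95% intervals, filled where the adjusted p is under 0.05; grey ticks are the differences within each of the 3 slides, and dotted lines mark 2-fold. No circle is filled on MS, 5 are in NaCl and 4 are for the interaction.

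In subclass I, SNRK2.10 (AT1G60940), a kinase active in roots under osmotic stress, had 13.22, 13.32 and 13.26 in Col-0 and 13.18, 13.15 and 13.25 in iU1-52 on MS. With salt it had 13.15, 13.18 and 13.22 in Col-0 and 13.74, 13.89 and 13.93 in iU1-52. The MS arrays and the Col-0 arrays with salt lay within a narrow band, from 13.15 to 13.32, and the 3 iU1-52 arrays with salt stood above it.

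SNRK2.10 had the smallest adjusted p of the family between the lines in NaCl: the difference was 0.67 (1.59-fold, SE 0.07, adjusted p = 2.94e-05), 0.59, 0.72 and 0.70 within the 3 slides, and 0.63 to 0.73 with any array left out. The interaction was 0.74 (SE 0.0955, adjusted p = 0.000392). Salt raised it by 0.66 in iU1-52 (SE 0.07, adjusted p = 7.94e-06). In Col-0 the change was -0.08 with an interval from -0.23 to 0.07 (adjusted p = 0.308), and 0.02 with scaling to the 75th percentile. SNRK2.10 stayed under 2-fold in every comparison.

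SNRK2.9 (AT2G23030) rose with salt in both lines. Its values on MS were 11.71, 11.82 and 11.73 in Col-0 and 11.88, 11.99 and 12.04 in iU1-52, and in NaCl 13.06, 12.90 and 12.72 in Col-0 and 12.99, 13.81 and 13.31 in iU1-52. The salt groups lay above both MS groups and overlapped each other. The rise was 1.14 on the log2 scale in Col-0 (SE 0.17, adjusted p = 0.000177) and 1.40 in iU1-52 (2.64-fold, SE 0.17, adjusted p = 3.19e-05). Between the lines in NaCl the difference was 0.48 (adjusted p = 0.0387), but it was -0.07 within slide 1 against 0.91 and 0.59 within the other slides. It ranged from 0.26 without iU1-52 in NaCl replicate 2 to 0.67 without iU1-52 in NaCl replicate 1, and its adjusted p, at most 0.125 (without Col-0 in NaCl replicate 3), stayed under 0.05 in only 2 of the 12 fits with 1 array left out, those without replicate 1 of either line in NaCl. The interaction of SNRK2.9 was 0.26 (adjusted p = 0.432), and 0.45 without iU1-52 in NaCl replicate 1 (adjusted p = 0.0686).

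SNRK2.5 (AT5G63650) fell with salt in both lines. It had 11.42, 11.43 and 11.43 in Col-0 and 11.41, 11.36 and 11.38 in iU1-52 on MS, and 10.50, 10.38 and 10.43 in Col-0 and 10.99, 10.47 and 10.41 in iU1-52 with salt. Replicate 1 of iU1-52 in NaCl lay above the other 5 salt arrays, which overlapped. The fall was 0.99 on the log2 scale in Col-0 (SE 0.13, adjusted p = 5.44e-05), just under the 2-fold limit, and 0.76 in iU1-52 (SE 0.13, adjusted p = 0.000312). Scaling to the 75th percentile put the Col-0 value at -1.01, past the limit. Between the lines in NaCl the difference was 0.19, with an interval from -0.09 to 0.47 (adjusted p = 0.231). Without iU1-52 in NaCl replicate 1 it was 0.0062, and the salt difference in iU1-52 was then -0.95.

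SNRK2.1 (AT5G08590) also fell, by 0.63 in Col-0 (SE 0.08, adjusted p = 3.76e-05) and by 0.41 in iU1-52 (SE 0.08, adjusted p = 0.000681). Its brighter probe ranged from 14.16 to 14.38 on MS and from 13.67 to 13.95 with salt, and the lines overlapped in NaCl. The difference between them was 0.11 by the brighter probe (adjusted p = 0.269), and 0.03 without iU1-52 in NaCl replicate 1. A dimmer probe of SNRK2.1 gave 0.18 (adjusted p = 0.0375), with no overlap, so the probes disagreed on which side of the threshold this small difference lay. SNRK2.4 (AT1G10940), known with SNRK2.10 from roots under salinity, had a difference between the lines in NaCl of 0.03, with an interval from -0.09 to 0.14 (adjusted p = 0.704). Salt lowered SNRK2.4 by 0.25 in Col-0 (adjusted p = 0.00151) and by 0.23 in iU1-52 (adjusted p = 0.00267).

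By member counts, salt called 3 of the 10 genes in Col-0 (SNRK2.7 and SNRK2.9 higher, SNRK2.3 lower), where 23.2% of all features were called, 11.0% as higher and 12.2% as lower. In iU1-52 it called 2 (SNRK2.7 and SNRK2.9, both higher), where 27.4% were called and 13.1% as higher. By the adjusted p alone, 8 members changed in Col-0, 2 higher and 6 lower, and 9 changed in iU1-52, 5 higher and 4 lower. Of all features, 69.0% passed the adjusted p alone in Col-0 (33.9% higher and 35.2% lower) and 67.9% in iU1-52 (35.4% higher and 32.5% lower), against which the 8 and 9 of 10 members are to be read. Groups with and without salt did not overlap for 8 members in Col-0 (82.5% of all features) and for 9 in iU1-52 (68.9%). The interaction asks if salt altered the gap between the lines. It was called for 1 member, as higher, where 9.50% of features were called and 4.26% as higher. By the adjusted p alone it passed for 4 members (SNRK2.6, SNRK2.7, SNRK2.8 and SNRK2.10), all higher, where 14.7% of features did so as higher. In either direction, 6868 of 23936 features passed it. In NaCl the lines did not overlap for 5 members, and for 53.3% of all features. On MS they did not overlap for 4 members, and for 16.2% of features.

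**Figure D3:**
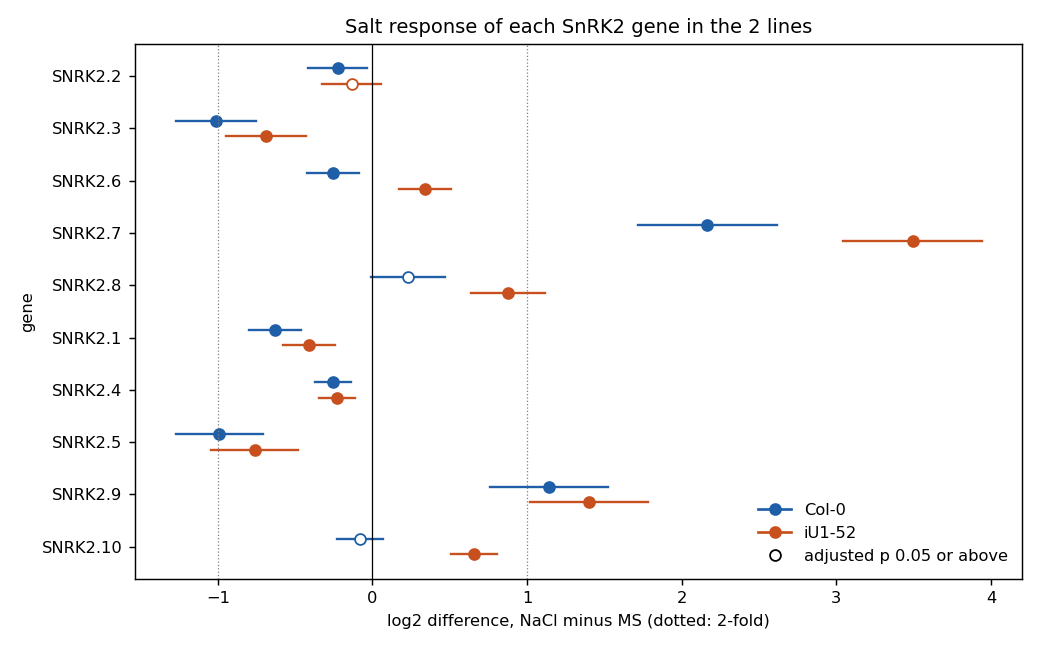
Log2 difference between NaCl and MS (x axis) of each SnRK2 gene (y axis) in Col-0 (blue) and iU1-52 (orange), as limma estimates with 95% intervals; open circles have an adjusted p of 0.05 or above and dotted lines mark 2-fold. SNRK2.7 has the largest rise in both lines, at 2.17 and 3.49, and SNRK2.6 lies on opposite sides of 0.

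The pattern of SNRK2.7 over the 12 arrays was most like that of AT3G13130 (Pearson r = 0.998), FER2 (AT3G11050, a ferritin, an iron storage protein; r = 0.997) and AT5G04000 (r = 0.997). These values describe 12 arrays that share 4 groups, and 1745 features had an r over 0.95 with SNRK2.7. In NaCl the signals of these 3 genes in iU1-52 exceeded those in Col-0 by 1.62, 1.64 and 1.67 on the log2 scale.

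Upstream of the kinases, the receptors and the phosphatases differed in what they did. Of the 14 PYR/PYL receptors listed, 10 were tested, and between the lines in NaCl 1 was called higher and 2 lower in iU1-52, with a median of -0.08. Of all features, 11.0% were called there in either direction and 5.35% as higher. PYL1 in iU1-52 was at 0.499 times its Col-0 level (adjusted p = 0.00151), at the edge of the limit, and PYL8 at 0.479 times (adjusted p = 2.89e-05). PYL13 was 2.63-fold higher (adjusted p = 0.00241) and was well above background on 0 arrays of the MS groups. On the log2 scale PYL1 was at -0.90 without Col-0 in NaCl replicate 1, -0.88 without iU1-52 in NaCl replicate 2 and -0.86 without replicate 3 of that group, and PYL8 was at -0.98 without the last. Without iU1-52 in NaCl replicate 1, 3 receptors were called lower.

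All 9 clade A phosphatases 2C, the negative regulators of the kinases, were tested, and 7 were higher in iU1-52 in NaCl by the adjusted p. Of these, 3 were called and 0 of the 9 were lower, and the median difference was 1.03. Among all features, 27.8% were higher by the adjusted p and 5.35% were called higher. AHG1, a phosphatase known from seeds, differed by 2.98 (adjusted p = 2.34e-05), HAI3 by 2.46 (adjusted p = 0.000955) and ABI2 by 1.03 (adjusted p = 0.000847). ABI2 was at 0.86 without Col-0 in NaCl replicate 1, under the 2-fold limit, and 2 phosphatases were then called. HAI1 and HAI2 had differences of 1.29 and 2.05 with adjusted p of 0.0699 and 0.0549.

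Of the RAF-type kinases, which phosphorylate SnRK2s, 4 could be named and tested, and 0 were called between the lines in NaCl. Most of those listed, among them RAF18, RAF20 and RAF24, were left out because the reference did not pair their names with their loci. Nothing is said here of those left out. Among the 4 tested, EDR1 passed the adjusted p (0.48, adjusted p = 0.00987). Without iU1-52 in NaCl replicate 1, 3 of the 4 tested passed it as higher. Among 5 other regulators compared between the lines in NaCl, PP2-B11, an F-box protein that targets SNRK2.3 for degradation, was called higher (2.14-fold, adjusted p = 0.00011). It fell under the 2-fold limit without Col-0 in NaCl replicate 1 (0.997 on the log2 scale) or without iU1-52 in NaCl replicate 2 (0.992). The SnRK1 complex, the relative of the family in energy signalling, had 0 of 6 tested genes called between the lines in NaCl, with 1 higher and 1 lower by the adjusted p. Without iU1-52 in NaCl replicate 1, 3 SnRK1 genes were higher and 1 lower by the adjusted p.

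Substrates of the kinases went both ways. Of 15 tested, 11 were higher and 3 lower in iU1-52 in NaCl by the adjusted p, with 2 called in each direction and a median of 0.66. Among all features, 51.0% passed the adjusted p, 27.8% as higher, and 11.0% were called. The called genes that were higher were the bZIP factors ABI5 (4.92-fold, adjusted p = 1.02e-05) and EEL (1.32 on the log2 scale, adjusted p = 0.000134), both known from seeds. The called genes that were lower were the guard cell channels SLAC1 (-1.73 on the log2 scale, adjusted p = 0.00296) and KAT1 (-1.36, adjusted p = 0.00536), and with normexp background correction these were at -0.74 and -0.74, under the 2-fold limit. Without iU1-52 in NaCl replicate 1, 6 substrates were called higher and 11 were higher by the adjusted p. With any other NaCl array left out, only 7 or 8 were higher by the adjusted p. Without iU1-52 in NaCl replicate 2, KAT1 was at -0.94.

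Between the lines in NaCl the marker lists did not move together: seed programme genes were higher in iU1-52, and green tissue and guard cell genes lower. In NaCl, 11 of 11 seed storage and late embryo genes were called higher in iU1-52, against 5.35% of all features. Their median was 2.44, and SESA3, CRU2 and EM1 differed by 3.39, 2.89 and 2.82. CRU2 was at 2.18 without Col-0 in NaCl replicate 1 and no longer passed (adjusted p = 0.0719), and 9 of the 11 genes were then called. Without Col-0 in NaCl replicate 3, or without iU1-52 in NaCl replicate 2 or 3, 10 were called. Over the list, the mean log2 signal was 3.14 to 3.32 on MS, where 2 of the 11 genes were well above background on at least 1 array of a group. In NaCl it was 12.35, 14.22 and 13.69 in Col-0 and 15.98, 15.71 and 15.89 in iU1-52. Replicate 1 of Col-0 in NaCl was the lowest salt array on this list, as it was for SNRK2.7.

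Green tissue markers were lower in iU1-52 in NaCl for 7 of 7 by the adjusted p, 6 of them called. Among all features, 51.0% passed the adjusted p and 11.0% were called, in either direction. LHCA1, LHCB2.1 and LHCB1.1 were at -2.82, -2.64 and -2.39. The mean log2 signal of the 7 was 14.45 to 14.74 against 16.54 to 16.64 in Col-0 in NaCl. Of the guard cell markers, FAMA (-1.41) and HT1 (-1.21) were called. Without iU1-52 in NaCl replicate 1, or without replicate 3 of that group, 3 guard cell markers were called lower. With normexp correction HT1 was at -0.46. Root markers had 0 of 6 called between the lines in NaCl and 1 higher by the adjusted p, and their mean log2 signal was 11.25 to 11.45 in iU1-52 and 11.23 to 11.26 in Col-0. Without iU1-52 in NaCl replicate 1, 2 root markers were higher and 1 lower by the adjusted p. With any other NaCl array left out, 0 passed. The part of these markers in the differences of SNRK2.6, SNRK2.7, SNRK2.8, SNRK2.9 and SNRK2.10 was not tested.

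**Figure D4:**
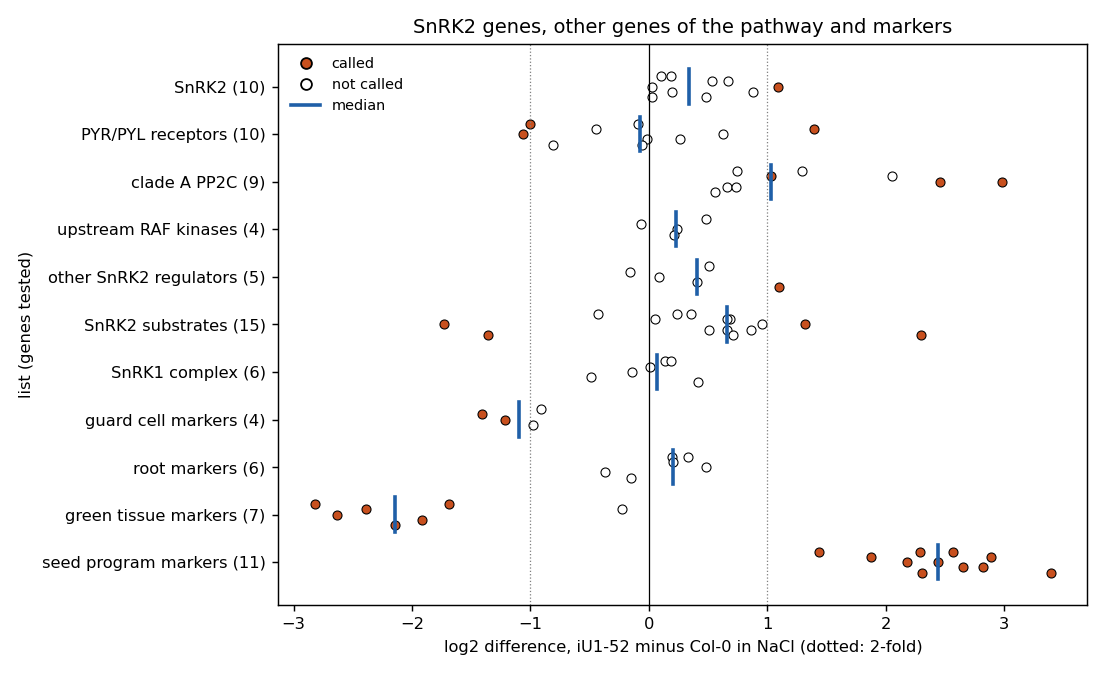
Log2 difference between iU1-52 and Col-0 in NaCl (x axis) for the SnRK2 genes, other genes of the pathway and marker lists (y axis, number tested in brackets). Each point is a gene, filled where it was called, blue bars are list medians and dotted lines mark 2-fold. The SnRK2 median is 0.34, the phosphatase median 1.03, the seed marker median 2.44 and the green tissue median -2.14.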

How the data were processed

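For every spot the authors deposited a Cy3 intensity from Agilent Feature Extraction, background-subtracted within the array and not normalized between arrays, with flags for outliers and for signal well above background. The methods state that labelled products were pooled before hybridisation, and what was pooled is not given in the sources used here. Control spots and 2 to 10 outlier spots per array were left out. Probes under 100 on every array were removed, followed by quantile normalization and log2. Between 75.43% and 79.44% of spots were well above background and 0 were saturated. Probes were named through accessions and TAIR10.1 locus tags (78.8% matched), and the probe with the highest mean stood for its gene. That left 20282 genes and 3654 unmatched probes. Groups came from the sample labels.

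Tests used limma (3.58.1, under R 4.3.3) with 1 mean per group over the 12 arrays, moderated by eBayes, and Benjamini-Hochberg adjustment over all features in each of 5 comparisons. The procedure was also run on simulated data, and no outcome of that run is given here. It is therefore not used as evidence that the tests hold where the groups differ in spread. Members and lists were chosen with earlier results of these data known. All members are named, and of each other list the genes called in NaCl, at most 3 in each direction. Other genes named from those lists were chosen after their values were seen. The fit was repeated with scaling to the 75th percentile, with normexp correction (offset 50, on median intensities in place of the planned means), without the filter, with only probes well above background kept, with a replicate block, on the 6 arrays compared, on probe means, on single probes, with either criterion alone, with a 2-way ANOVA and the fold limit, and with each array left out. Counts for the other lists with NaCl arrays left out were added after seeing the data. Probe, protein and promoter sequences were not used here.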

Additional observations from a re-analysis of the deposited data

Results flagged for a closer look

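The difference between iU1-52 and Col-0 depended on salt for 4 SnRK2 genes, by limma's interaction term with an adjusted p under 0.05. Of all features, 14.7% passed it as higher, and 6868 of 23936 in either direction. The difference in NaCl minus the difference on MS was 0.59 for SNRK2.6, 1.33 for SNRK2.7, 0.65 for SNRK2.8 and 0.74 for SNRK2.10. Each of the 4 was positive within all 3 slides, but so were members that did not pass: 8 of the 10 kept their sign over the slides. Among the 4, SNRK2.7 had the widest range there, from 0.65 to 2.16. Groups of 3 arrays were too small for a test of single outlying arrays.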

How the results depend on the processing

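By the adjusted p alone, 5 members passed between the lines in NaCl, 4 in the interaction, 8 for salt in Col-0 and 9 for salt in iU1-52. Of all features, 51.0% passed between the lines in NaCl, 69.0% for salt in Col-0 and 67.9% for salt in iU1-52. In the interaction 6868 of 23936 features passed. With 1 array left out, the called members numbered 0 to 1 between the lines in NaCl, 2 to 4 for salt in Col-0, 2 for salt in iU1-52, 1 in the interaction and 0 on MS. The 0 in NaCl came without replicate 1 of either line. Normexp correction called 2 members for salt in Col-0. Directions changed only for differences near 0 that passed no threshold. SNRK2.2 between the lines in NaCl was -0.0041 with scaling to the 75th percentile, and it ran from -0.043 without iU1-52 in NaCl replicate 1 to 0.0663 without iU1-52 in NaCl replicate 3, with -0.0006 without Col-0 in NaCl replicate 3. SNRK2.4 between the lines on MS ran from -0.0202 without iU1-52 replicate 1 to 0.0235 without iU1-52 replicate 2, with -0.0046 without Col-0 replicate 2 and -0.0002 without Col-0 replicate 3, and its interaction was -0.011 with normexp correction. SNRK2.10 for salt in Col-0 was 0.0199 with scaling to the 75th percentile. With the replicate number as a block, 1 member was called in NaCl, 1 in the interaction, 3 for salt in Col-0, 2 for salt in iU1-52 and 0 on MS, as without it, and SNRK2.7 in NaCl had an adjusted p of 0.00344. Same-numbered arrays had correlations of deviations from -0.052 to 0.208, over 0.1 in 5 of 18 pairs, so the numbers were not taken to pair the samples. Scaling moved the median of all features by at most 0.05. Probes of these genes were well above background on every array, and each group had 3 arrays.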
